A study of Homo sapiens with 402 samples.

Results

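ARC and 9 classic immediate early genes (FOS, FOSB, FOSL1, JUN, JUNB, EGR1, ATF3, IER2 and IER3) were followed across an RNA sequencing screen of MCF10A cells, a non-tumorigenic human breast epithelial line. They were chosen by name with their CPM in the chemical and dose groups of these data in view, above all the 25 µM groups, and are 10 of the 34718 gene symbols counted on 4 plates and of the 15081 counted on a 5th plate, which held DDE. Wild-type cells, all from a single passage, were seeded in multi-well plates and dosed a day later with 1 of 21 chemicals at 0.025, 0.25, 2.5 or 25 µM. RNA was read after 48 h, so the values describe the end of a long exposure and not the first minutes of a response.

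The metals shared plate 3153-AT, with water as solvent and 15 water controls: mercury, lead, copper, cadmium and arsenic. Thiram shared plate 3284-AT with PCB187, PCB153, DCP_25 and DCB_14, all in DMSO beside 15 DMSO controls. BPS, BPF and BPA were on plate 3206-AT, as were PPB and MPB, again with DMSO as solvent and 15 controls of it. Of the chemicals on plate 3240-AT, PFOA was given in water (4 controls), while phenanthrene, PFOS, PFNA and PFDA were given in DMSO (12 controls). The plate of DDE had 8 controls whose labels name water and another plate, while DDE itself is labelled DMSO. A dosed group had 4 biological replicates per the labels, except cadmium at 25 µM (2 libraries used) and MPB and PPB at 0.025 µM.

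In all, 332 dosed and 69 control libraries were used, with a median total of 12.6 M counts (M, mega) and a range of 1.43 M to 25.8 M. The shallowest were the 2 cadmium libraries at 25 µM, with 1.43 M and 1.45 M, where the median log2 fold change of all 24295 tested genes was -1.42. Changes in that group are to be read beside that shift, which depends on the method. It was -1.25 in edgeR with RLE scaling and nearly absent with DESeq2. The distance of a gene from -1.42 therefore holds for the edgeR fit only. Thiram at 25 µM had 2.46 M to 6.29 M and arsenic at 25 µM 7.27 M to 12 M. Among basal epithelial markers KRT5 and KRT6A were abundant (medians 1181 and 1252 CPM), KRT14 and TP63 less so (20.9 and 3.66 CPM). Luminal markers were mixed: KRT8 and KRT18 had medians of 396 and 518 CPM and GATA3 22.7 CPM, while ESR1, PGR and KRT19 had medians of 0. Of the neuronal genes SNAP25, RBFOX3, GRIN1 and CAMK2A had medians of 0, SYP 0.0968 CPM and MAP2 7.42 CPM. CPM here are counts divided by the TMM-scaled library total in M. For the 2 cadmium libraries at 25 µM the joint total of 2.89 M counts was scaled to 1.51 M, which raises every CPM of that group. All CPM are on this scale. They are not per gene length, so levels are compared only within a gene.

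Immediate early genes are transcribed within minutes of a stimulus from factors that are already present in the cell, without new protein synthesis. Growth factors, calcium and stress reach them through the MAP kinases ERK, JNK and p38, which activate ELK1 with SRF, CREB and pre-existing JUN at the promoters. FOS and JUN family proteins pair to form AP-1, EGR1 is a zinc finger factor, and ATF3 is a bZIP factor best known from the stress response. ARC is known as a cytoskeletal protein of active synapses, and its gene belongs to the same early class in neurons.

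The DNA just before the start was searched for short motifs, some of them tied to these inputs. The promoter entries used here, from RefSeq (GRCh38.p14), covered 7 of the 10 genes, in 8 entries since ATF3 has more than 1 start. ARC, FOSL1 and IER3 were not searched, so nothing is said here about motifs at their starts. The 250 bases before each start were searched on both strands for the CRE core TGACGT, for its variant TGACATCA, for the AP-1 site TGANTCA, for the heat shock element and for the CArG box of SRF. The 120 bases before the start of the 4 genes with a match in that stretch are printed here 5′ to 3′ on the gene's strand, with the matches in capitals; no matches overlap one another. FOS lies at chr14:75278708-75278827 on the plus strand, FOSB at chr19:45467876-45467995 on the plus strand, JUN at chr1:58784048-58784167 on the minus strand and EGR1 at chr5:138465359-138465478 on the plus strand.
FOS: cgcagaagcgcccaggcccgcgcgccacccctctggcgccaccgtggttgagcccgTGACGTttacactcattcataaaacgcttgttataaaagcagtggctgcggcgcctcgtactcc
FOSB: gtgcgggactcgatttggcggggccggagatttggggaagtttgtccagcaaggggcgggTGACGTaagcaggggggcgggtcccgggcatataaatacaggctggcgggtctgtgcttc
JUN: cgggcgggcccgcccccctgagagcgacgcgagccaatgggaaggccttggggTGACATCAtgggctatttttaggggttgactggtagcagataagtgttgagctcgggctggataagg
EGR1: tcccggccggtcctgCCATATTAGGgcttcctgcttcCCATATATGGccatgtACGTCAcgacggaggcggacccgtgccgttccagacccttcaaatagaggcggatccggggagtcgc

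FOS and FOSB carried TGACGT starting 64 and 60 bases before the start. JUN carried TGACATCA starting 67 bases before it, and the upstream start of ATF3 the same motif at 123 bases. EGR1 had 2 CArG boxes, starting 105 and 83 bases before the start, and TGACGT on the other strand at 67 and 136 bases. TGACGT was found in 7.10% of the 35116 promoters of the table, TGACATCA in 2.38%, TGANTCA in 6.57%, the CArG box in 1.16% and the heat shock element in 0.441%. These matches describe letters only, and a missing match does not show a missing input, since a motif may lie outside the stretch searched. None was found in JUNB or IER2, and neither TGANTCA nor the heat shock element in any of the 8 entries.

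At 25 µM, arsenic, thiram and cadmium had the highest mean levels of FOSB, JUN, EGR1, ATF3 and IER2. Arsenic and thiram had those of FOS, JUNB and ARC, while cadmium had the lowest mean FOS, JUNB and IER3. The levels at every dose were in view when the genes were picked. All calls against controls and of dose trends (adjusted p under 0.05) are therefore counted for description only. Nothing is read from their share. Arsenic had 9 of 10 genes called higher, where 23.2% of all genes tested were called higher and 41.4% in either direction. Thiram had 9 of 10 called higher, where 13.7% of all genes were (25.8% in either direction), and cadmium 5 of 10, where 5.61% were (10.8% in either direction). Arsenic and cadmium share their controls. Over all 21 chemicals 36 of 205 gene and chemical pairs were called at this dose (17.6%, beside 4.84% of all pairs), 34 of them higher. The median log2 fold change of the genes was 2.70 in arsenic, 3.97 in thiram and 1.91 in cadmium, against 0.00096, -0.11 and -1.42 over all genes tested. In bulk libraries a change in the share of cells of a kind and a change in RNA per cell cannot be told apart. Each plate was scaled by itself, so levels set side by side across plates are descriptions only.

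**Figure D1:**
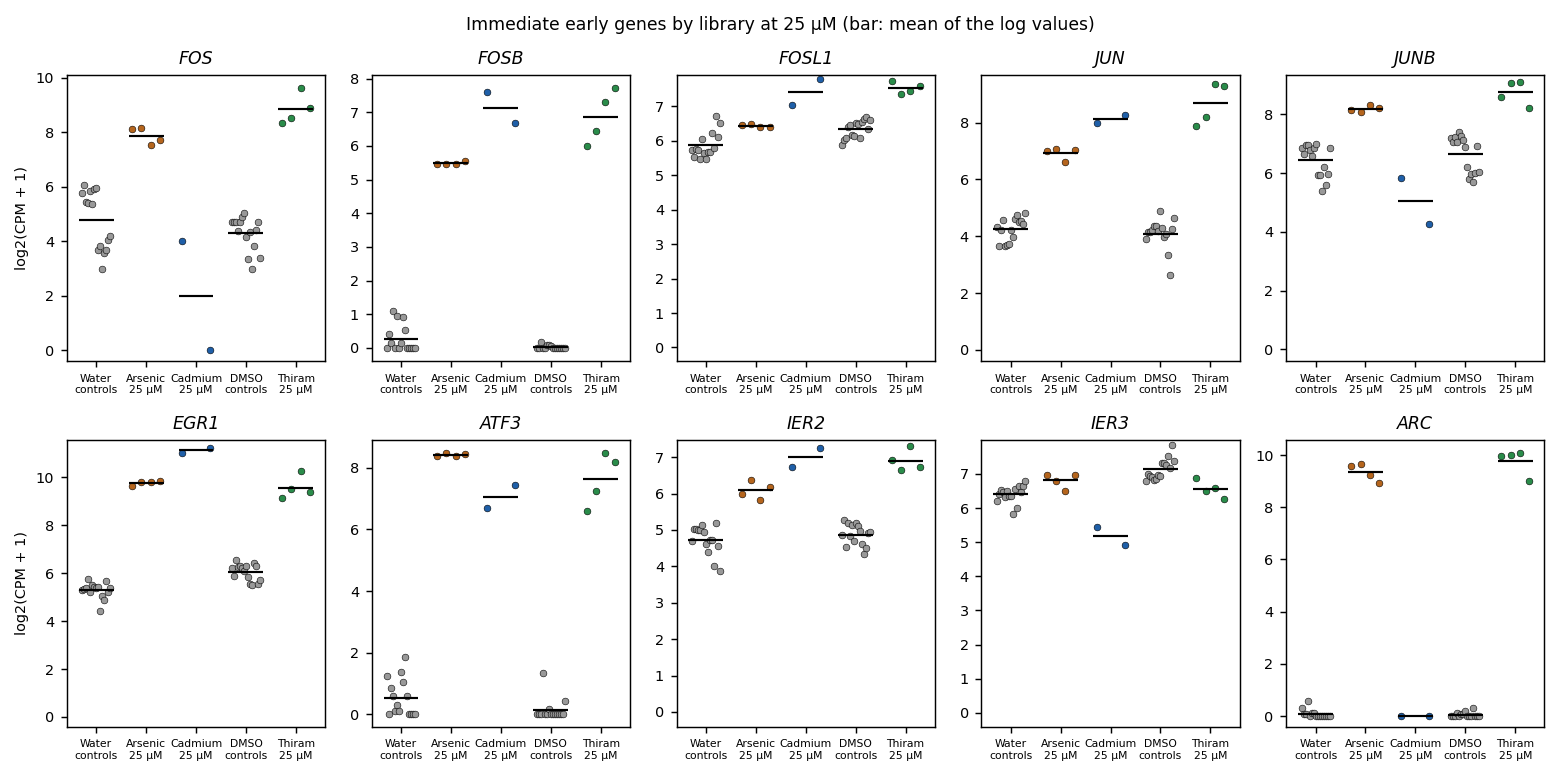
Values of the 10 genes in single libraries, as log2(CPM + 1), in the 15 water controls of plate 3153-AT, arsenic and cadmium at 25 µM, the 15 DMSO controls of plate 3284-AT and thiram at 25 µM; bars are means of the log values. ARC reached 488 to 1081 CPM in arsenic and thiram and had 0 counts in both cadmium libraries, and EGR1 was highest in cadmium.

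The FOS family moved unevenly. FOS, the founding partner of JUN in AP-1, had 276, 283, 183 and 208 CPM in the 4 arsenic libraries and 321, 369, 796 and 473 CPM in the 4 thiram libraries. The water controls ran from 6.87 through a median of 40.2 to 65.6 CPM, and the DMSO controls of the thiram plate from 6.91 through 20.3 to 32 CPM. All 8 dosed libraries therefore lay above all their controls, with log2 fold changes of 2.54 ± 0.30 (SE) for arsenic and 4.44 ± 0.19 for thiram. Cadmium at 25 µM went the other way, with FOS at 15.1 CPM in one library and 0 in the other; the log2 fold change of -2.36 ± 1.88 did not pass the threshold.

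FOSB, a close relative of FOS that is nearly silent in resting cells, was at most 1.12 CPM in the water controls and at most 0.121 CPM in the DMSO controls of the thiram plate. It stood at 43.3, 42.7, 43.1 and 46 CPM in arsenic, at 63.4, 85.7, 156 and 212 CPM in thiram and at 195 and 101 CPM in cadmium. No dosed library of the 3 overlapped the controls, and arsenic lay below both other chemicals. The log2 fold changes were 7.05 ± 0.34, 11.6 ± 0.48 and 8.82 ± 0.61. The figure for thiram rests on 5 counts in its 15 controls.

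FOSL1, the family member that epithelial cells keep on under growth factor signalling, was present everywhere. At 25 µM it was called higher in thiram, copper, lead and DDE, at log2 fold changes of 0.93 to 1.25. Thiram had 214, 163, 174 and 191 CPM against 57.5 to 103 CPM (median 82.8) in its controls, with no overlap and a log2 fold change of 1.25 ± 0.22. Arsenic, with 83.8 to 88.1 CPM, lay within the range of the water controls (42.9 to 105 CPM, median 52.6). Cadmium had 129 and 223 CPM, both above those controls, at 1.64 ± 0.61, which was not called.

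JUN, the partner that makes AP-1 a strong activator, stood at 127, 134, 96.8 and 130 CPM in arsenic, 237, 290, 652 and 618 CPM in thiram and 251 and 307 CPM in cadmium. The water controls ran from 11.5 to 27.5 CPM (median 19.2) and the DMSO controls of the thiram plate from 5.15 to 28.2 CPM (median 17). Every dosed library lay above its controls, at log2 fold changes of 2.86 ± 0.28, 4.59 ± 0.18 and 4.05 ± 0.56. JUNB, which can damp the activity of JUN, had 270 to 318 CPM in arsenic and 298 to 554 CPM in thiram, above controls of 41.2 to 125 CPM and 51.5 to 167 CPM. In cadmium it had 56.5 and 18.2 CPM, 1 of these below all controls, with a log2 fold change of -1.32 ± 0.55 that was not called. So JUN was high and FOS and JUNB were not in the same 2 cadmium libraries. With the cadmium library of another plate barcode added, JUNB was called lower (-1.29 ± 0.40), and the log2 fold changes of the 5 called genes were smaller: FOSB 8.01, ATF3 7.16, EGR1 5.18, JUN 3.27 and IER2 1.62. DESeq2 called 9 of 10 genes in this group in place of 5, adding FOSL1 as higher and FOS, JUNB and IER3 as lower, and RLE scaling added FOSL1 (1.81).

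EGR1, a growth and stress factor, gave 2081 and 2393 CPM in cadmium, 799, 895, 886 and 909 CPM in arsenic and 556, 724, 1239 and 664 CPM in thiram. Its water controls ran from 20.3 to 53.8 CPM (median 40.3) and the DMSO controls of thiram from 44.4 to 92.1 CPM (median 74.0). None of these groups overlapped its controls. The log2 fold changes were 5.80 ± 0.17 for cadmium, 4.44 ± 0.13 for arsenic and 3.51 ± 0.16 for thiram.

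ATF3, which is induced by the integrated stress response and by MAP kinases, was at most 2.59 CPM in the water controls and 1.54 CPM in the DMSO controls of the thiram plate. It stood at 331, 357, 336 and 348 CPM in arsenic, 96.9, 150, 353 and 294 CPM in thiram, and 102 and 174 CPM in cadmium. The arsenic libraries lay close together (343 ± 11.9 CPM, SD, n = 4), and those of thiram were spread (224 ± 120 CPM, SD, n = 4). The log2 fold changes were 9.26 ± 0.23, 9.84 ± 0.34 and 7.93 ± 0.58. The figure for thiram rests on 38 counts in its 15 controls, 12 of which had 0.

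IER2, a small nuclear protein, was higher in all 3 chemicals, with 55.8 to 81.0 CPM in arsenic, 100 to 157 CPM in thiram and 105 and 153 CPM in cadmium, above controls that reached 35.3 and 37.8 CPM. Its log2 fold changes were 1.27 ± 0.15, 2.02 ± 0.18 and 2.19 ± 0.36. IER3, a survival gene of NF-κB and ERK signalling, had 90.4 to 125 CPM in arsenic against 55.8 to 110 CPM in controls, a call at 0.42 ± 0.15 that was lost without replicate 1. In thiram it had 76.2 to 117 CPM against 110 to 230 CPM, and its -0.46 ± 0.32 made it the only gene of the 10 not called there. It was called lower in thiram with a term for the split of the libraries by label number described below (-0.54 ± 0.17), among the last numbers (-0.94 ± 0.22), with the 2 groups fitted alone and with no filter, but not among the first numbers (-0.20 ± 0.15). Cadmium had 42.7 and 29.4 CPM, below all 15 controls. The edgeR log2 fold change of -1.21 ± 0.51 was not called and lay near the edgeR median of all genes in that group. DESeq2 called IER3 lower there (-1.07 ± 0.28). With the third cadmium library added, the edgeR value was 0.03 ± 0.31.

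ARC went from near silence to a high level in arsenic and thiram. In arsenic the 4 libraries had 765, 808, 595 and 488 CPM, and in thiram 1001, 1039, 1081 and 512 CPM. Of the 61 controls on the 4 plates, 47 had no ARC count at all, and the highest was 1.01 CPM. The water controls of arsenic held 19 counts over 15 libraries and the DMSO controls of thiram 8 counts over 15, so the log2 fold changes of 12.5 ± 0.28 and 14 ± 0.28 rest on few control counts. Both cadmium libraries at 25 µM had 0 ARC counts. Over their joint TMM-scaled size of 1.51 M, 3 counts would be 1.99 CPM, so a level under that was not detectable there; the summed counts of the water controls came to 0.102 CPM.

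Ordered by mean level over all groups of the 4 plates, ARC was highest in thiram at 25 µM (907 ± 266 CPM, SD, n = 4) and arsenic at 25 µM (664 ± 149 CPM, n = 4), whose ranges overlap. Next were thiram at 2.5 µM (7.73 ± 6.37 CPM, n = 4) and cadmium at 2.5 µM (5.44 ± 6.41 CPM, n = 4), which also overlap each other. Arsenic at 2.5 µM followed with 0.697 ± 1.35 CPM (n = 4), all of it from 1 library at 2.72 CPM and 1 at 0.0725 CPM. Outside the leading 4 groups, 220 of 300 dosed libraries on these plates had 0 ARC counts. At 25 µM the 17 chemicals of these plates other than thiram, arsenic and cadmium had mean ARC between 0 and 0.497 CPM (PCB153).

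**Figure D2:**
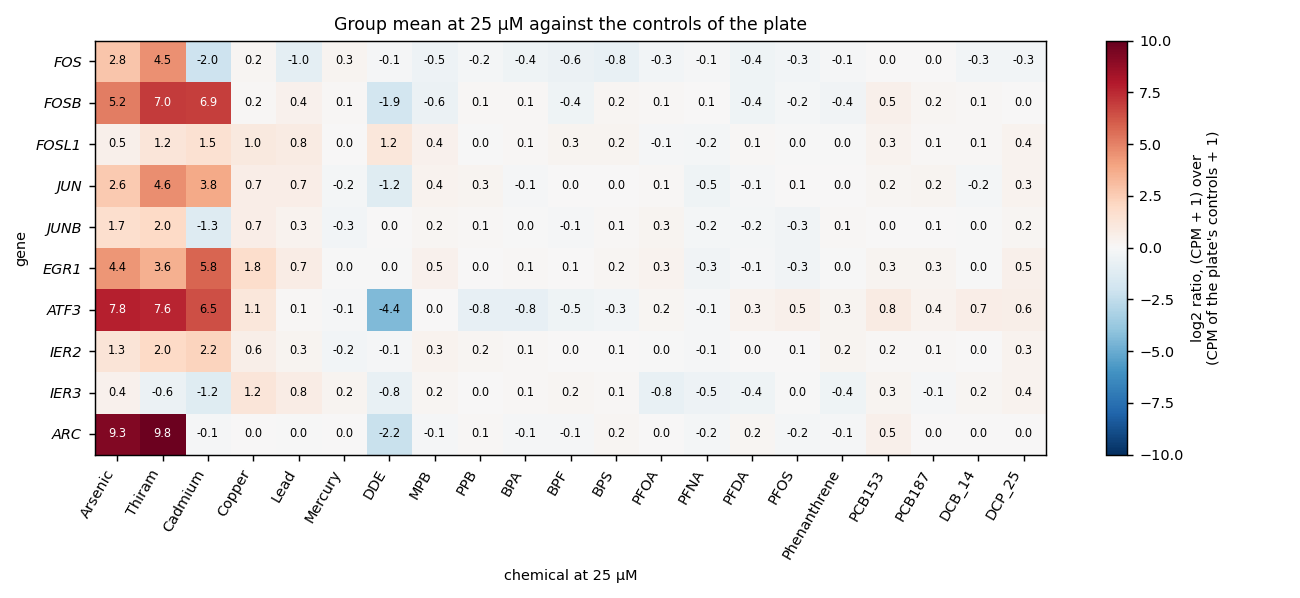
Log2 ratio of the group mean at 25 µM to the mean of the plate's controls, 1 CPM added to each, for 10 genes (rows) and 21 chemicals (columns); red is higher and blue lower than the controls. The darkest cells are in arsenic, thiram and cadmium, where EGR1 has ratios of 4.45, 3.55 and 5.80, and DDE has a low ATF3 (-4.45).

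Copper at 25 µM had 6 of the 10 genes called higher, where 2.92% of all genes were called higher and 5.16% in either direction. EGR1 had 162, 155, 105 and 118 CPM, all above the 15 water controls, at a log2 fold change of 1.75 ± 0.14. IER3 had 190, 257, 152 and 173 CPM, also clear of all controls, at 1.2 ± 0.14. FOSL1 was at 1.05 ± 0.27, JUNB at 0.60 ± 0.16 and IER2 at 0.55 ± 0.15. ATF3 had the largest fitted change of the 6, 2.26 ± 0.51, from 4.56 and 4.62 CPM in 2 libraries and 0 and 0.617 CPM in the others. It came to 3.14 ± 0.53 among the first label numbers and to -1.43 ± 1.55 among the last ones, and the call was lost under DESeq2 and without replicate 1 or 2. FOS, FOSB, JUN and ARC were not called in copper. Leaving out replicate 2 left 3 of the 6 calls, EGR1, IER3 and FOSL1.

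Lead at 25 µM had 3 genes called higher (2.16% of all genes were) and 1 lower (1.72%, or 3.88% in either direction). EGR1 rose by 0.70 ± 0.16, IER3 by 0.78 ± 0.15 and FOSL1 by 0.93 ± 0.27 on the log2 scale. FOS was lower at -1.33 ± 0.41, with 15.9, 26, 9.51 and 13.9 CPM, inside the range of the water controls. By label number the FOS fold change was -1.36 ± 0.19 among the first libraries and -0.11 ± 0.34 among the last, and that of EGR1 0.25 ± 0.13 and 1.17 ± 0.20. Leaving out replicate 4 left 1 of the 4 lead calls (IER3), and leaving out replicate 3 left 2 (IER3 and EGR1); DESeq2 called 2.

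MPB at 25 µM had 1 call, EGR1 at 0.48 ± 0.12 (0.43% of all genes were called higher, 1.38% in either direction), with 159, 93.6, 73.0 and 107 CPM against 52.7 to 100 CPM in controls. Without its replicate 1 that call was lost. In the remaining 14 chemicals of the screen none of the 10 genes was called at 25 µM by the main edgeR fit or by DESeq2. At most 3 per chemical had an unadjusted p under 0.05 in the main fit (PFNA, 3 of 10, where 11.4% of all genes did). Some calls did appear in these chemicals with no filter on low counts and within the first or the last label numbers. Mercury, the 5th metal, was among the 14: its means at 25 µM were 41 CPM for FOS, 39 CPM for EGR1 and 60.2 CPM for FOSL1. Over the 17 chemicals other than arsenic, cadmium and thiram on the 4 plates, mean levels at 25 µM ran from 8.22 to 41 CPM for FOS, 14.4 to 35.1 CPM for JUN and 75.1 to 152 CPM for JUNB. FOSB stayed at or under 0.695 CPM and ATF3 at or under 2.45 CPM there. Copper set the top of the ranges of EGR1 (39 to 135 CPM), IER3 (78.6 to 193 CPM) and IER2 (22.2 to 40.9 CPM), and MPB that of FOSL1 (60.2 to 134 CPM).

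Below 25 µM the same fits gave fewer calls, which share their controls with the 25 µM contrasts and are likewise descriptions. At 2.5 µM, 11 of 205 gene and chemical pairs were called, all higher, which is 5.37%, beside 0.413% of all such pairs in the screen (0.189% higher). At 0.25 µM 4 were called, or 1.95%, beside 0.0734%, and at 0.025 µM none by edgeR, beside 0.0104% (0.00421% higher). At that lowest dose 33 of 205 (16.1%) had an unadjusted p under 0.05, as had 6.37% of all pairs, and DESeq2 called 2, beside 0.0994%. These counts depend on the split of the libraries by label number described below. With a term for it they were 12 at 0.25 µM (0.283% of all pairs) and 5 at 0.025 µM (0.0712%), among the first numbers 14 and 8 (0.513% and 0.316%), and among the last 20 and 15 (0.361% and 0.342%). On plates 3153-AT and 3284-AT ARC, FOSB and ATF3 did not pass the filter on low counts among the controls alone, and entered the fits through dosed libraries in which they were high.

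ARC was called at 2.5 µM in thiram and cadmium. In thiram the libraries had 5.98, 1.97, 6.16 and 16.8 CPM, all above the highest control at 0.255 CPM, for a log2 fold change of 7.05 ± 0.81 (0.0329% of all genes were called, every one higher). In cadmium they had 1.65, 4.41, 0.910 and 14.8 CPM, all above the highest control at 0.511 CPM, for 5.61 ± 0.67 (0.206% of all genes were called higher, 0.235% in either direction). ARC kept its call in every alternative run for these 2 groups. In cadmium at 0.025 and 0.25 µM all 8 libraries had 0 ARC counts, so the level at 2.5 µM was at least 40.3-fold and at least 56.7-fold higher, taking 3 counts over each group of 4 libraries as its floor. Replicate 4 held 196 of the 272 counts, and without it these bounds were at least 15.3-fold and at least 21.5-fold and the log2 fold change against controls was 4.23. Thus ARC in cadmium was seen at 2.5 µM and at no other dose, and the 25 µM libraries were too shallow to show a level under 1.99 CPM.

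ATF3 was called in the same 2 chemicals at 2.5 µM. Thiram had 1.71, 1.02, 7.93 and 11.9 CPM, for a log2 fold change of 4.45 ± 0.76, and cadmium 6.06, 5.33, 0.910 and 2.34 CPM, for 2.57 ± 0.52. Both groups overlapped their controls. By label number, thiram gave 2.46 ± 1.17 among the first and 7.60 ± 1.45 among the last libraries, and cadmium 3.46 ± 0.61 and 0.996 ± 1.03. The last controls of the thiram plate had a median ATF3 of 0 and at most 0.354 CPM, so 7.60 rests on few control counts. The call in thiram was lost under DESeq2, among the first numbers and without replicate 4, and that in cadmium under DESeq2, among the last numbers and without replicate 1 or 2. FOSB in cadmium at 2.5 µM had 1.38, 2.25, 0.424 and 4.83 CPM (2.71 ± 0.68), a call lost under DESeq2, with the 2 groups fitted alone, among the first and among the last numbers, and without replicate 1, 2 or 4.

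Copper had 3 calls at 2.5 µM, as had cadmium. EGR1 had 83.1, 80.2, 107 and 95.6 CPM, all above the highest control at 53.8 CPM (1.19 ± 0.15; 1.42% of all genes were called higher, 3.03% in either direction). IER3 had 143, 136, 196 and 192 CPM, all above the highest control at 110 CPM (0.99 ± 0.14). FOSL1 had 99.0, 88.1, 168 and 178 CPM (1.25 ± 0.26), in part within the controls. All 3 kept their calls in every alternative.

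IER3 was the gene with the most calls at low dose. It was higher in arsenic at 2.5 µM (0.59 ± 0.15; 0.906% of all genes called higher, 1.96% in either direction) and 0.25 µM (0.69 ± 0.15; 0.0206% higher, 0.07% in either direction), in lead at 2.5 µM (0.65 ± 0.15; 0.387% higher, 0.613% in either direction) and in copper at 0.25 µM (0.81 ± 0.14; 0.0494% higher, 0.156% in either direction). Arsenic at 0.25 µM had 123, 120, 142 and 156 CPM, above all 15 water controls. The values were alike across doses there: 111, 102, 158 and 157 CPM at 0.025 µM and 90.4 to 125 CPM at 25 µM. Each of these calls was lost when 1 replicate was left out: replicate 3 for lead, 3 or 4 for copper and for arsenic at 2.5 µM, and 2, 3 or 4 for arsenic at 0.25 µM.

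The other calls at 0.25 µM were EGR1 in PPB and in PCB153. PPB had 97.9, 108, 115 and 127 CPM against 52.7 to 100 CPM in the controls (0.52 ± 0.12; 0.0717% of all genes called, all higher), and the call was lost without replicate 2, 3 or 4. PCB153 had 73.9, 73.6 and 79.5 CPM in 3 libraries and 334 CPM in replicate 3. Its log2 fold change of 0.99 ± 0.17 (0.314% of all genes called higher, 0.333% in either direction) rests on that library: without it the call was lost, and among the first label numbers the fold change was -0.01.

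**Figure D3:**
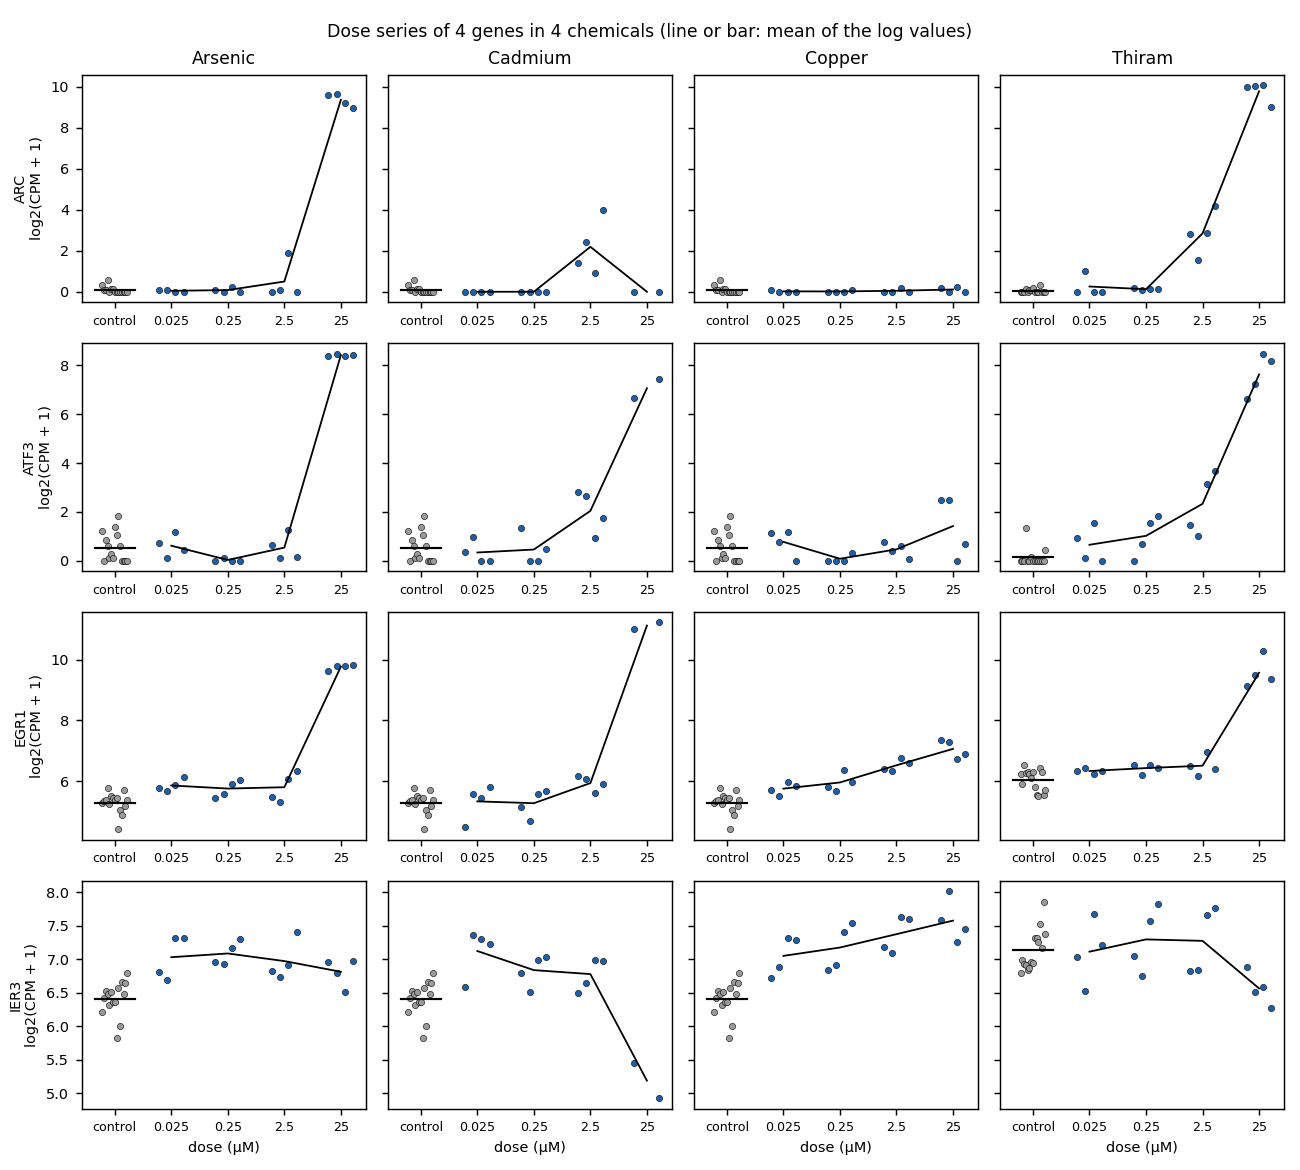
Single libraries of 4 genes (rows) in arsenic, cadmium, copper and thiram (columns) by dose in µM, with the controls of the plate at the left, as log2(CPM + 1); lines and bars are means of the log values. ARC is at 0.910 to 16.8 CPM in cadmium and thiram at 2.5 µM, EGR1 in copper is at 80.2 to 107 CPM at 2.5 µM and 105 to 162 CPM at 25 µM, and IER3 in arsenic spans 102 to 158 CPM at 0.025 µM and 90.4 to 125 CPM at 25 µM.

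A trend from 0.025 to 2.5 µM, which uses neither controls nor the top dose, was called for 3 of 205 pairs (1.46%, beside 0.0339% of all pairs). The levels at these doses were in view when the genes were picked, so these calls too are descriptions. The 3 pairs were ARC in thiram (4.88 ± 0.90 between 2.5 and 0.025 µM, 0.00939% of all genes), ARC in cadmium (0.0741%) and EGR1 in copper (0.77 ± 0.19, 0.226%). ARC entered these fits through dosed libraries in which it was high. For ARC in cadmium the fitted slope is set by the 0 counts at the low dose, and the bound of at least 40.3-fold given above stands in its place. The trend in thiram was lost under DESeq2 and without replicate 3 or 4, that in cadmium without replicate 1, 2 or 4, and that in copper under DESeq2, with RLE scaling and without any 1 of the 4 replicates.

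Controls of 1 plate differed among themselves, in depth as well. On plate 3153-AT the first 8 label numbers had 12.6 M to 23.9 M counts and the last 7 had 1.93 M to 5.40 M. On plate 3284-AT the first had 15.1 M to 22.5 M and the last 2.31 M to 4.73 M. On plate 3206-AT these were 14.1 M to 17.4 M and 7.33 M to 12.6 M. The DMSO controls of plate 3240-AT overlapped, with 7.95 M to 15.1 M and 4.65 M to 8.14 M. With the first 8 label numbers set against the rest, and only DMSO controls on plate 3240-AT, 6 of 29 tests were called. The levels of the controls were in view when the genes were picked, so these calls are descriptions as well. On plate 3153-AT FOS ran from 40.2 to 65.6 CPM (median 55.1) in the first 8 controls. In the last 7 it ran from 6.87 to 17.4 CPM (median 12), with no overlap. The log2 fold change, last against first, was -2.08 ± 0.20, where 20.3% of all genes were called. JUNB was also lower in the last controls there (-0.84 ± 0.11) and FOSL1 higher (0.45 ± 0.13). On plate 3284-AT JUNB was lower (-1.05 ± 0.12) and IER3 higher (0.52 ± 0.09), where 6.38% of all genes were called. FOSL1 was higher on plate 3206-AT (0.57 ± 0.09), where 6.08% were. On plate 3240-AT, with 6 DMSO controls on each side, none of 7 was called by edgeR, where 0.538% of all genes were. IER3, FOSL1 and JUNB had log2 fold changes of -0.69 ± 0.18, -0.34 ± 0.10 and -0.24 ± 0.09 there.

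The fold changes against controls differed with the same split. With replicates 1 and 2 set against the first controls, and 3 and 4 against the last, FOS in arsenic at 25 µM had a log2 fold change of 2.45 ± 0.12 and then 4.10 ± 0.21, and JUNB 1.34 ± 0.10 and 2.38 ± 0.17. In thiram FOS gave 3.81 ± 0.15 and 5.51 ± 0.23, and JUN 3.78 ± 0.17 and 5.43 ± 0.21. ARC gave 14.1 ± 0.23 and 14 ± 0.47 in thiram. Both rest on few control counts, 8 over the 15 controls, and the last controls there had a median of 0 and at most 0.255 CPM. In arsenic no fold is given for ARC, since the last controls of plate 3153-AT had 0 ARC counts. Each fold given lay above 0 in both splits. Whether the numbers stand for a batch of cells, a plate position or a preparation is not given in the labels used here. The part that the depth of the controls has in these differences was not tested.

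**Figure D4:**
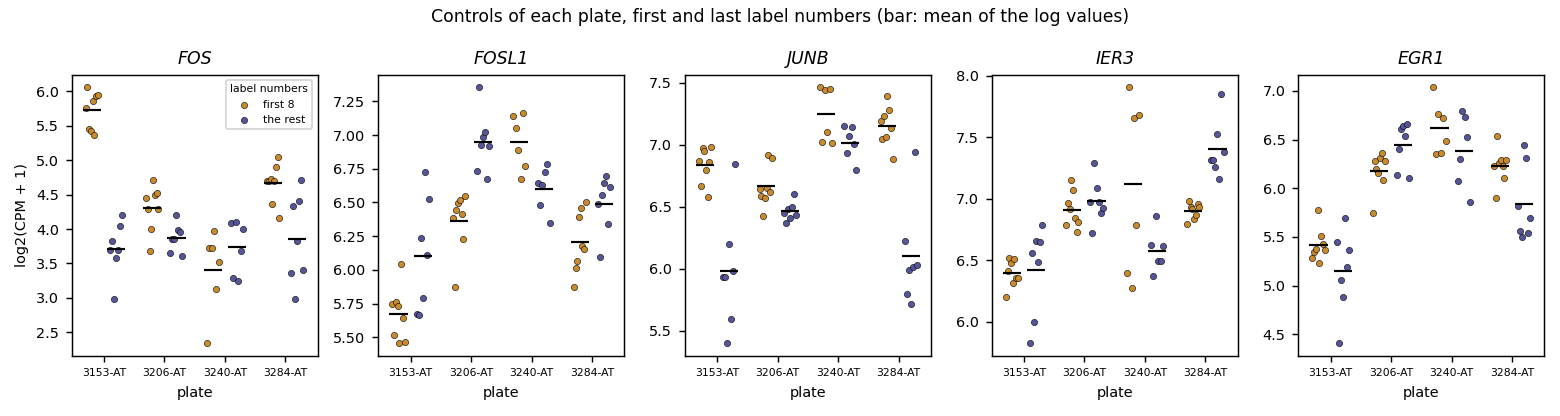
Control libraries of 4 plates by plate, with the first 8 label numbers (orange) beside the rest (blue), as log2(CPM + 1); bars are means of the log values. FOS on plate 3153-AT splits into 40.2 to 65.6 CPM and 6.87 to 17.4 CPM.

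Water and DMSO controls differed in 1 of the 10 genes. The water controls were numbered 39, 40, 47 and 48, and the DMSO controls 33 to 38 and 41 to 46. Solvent and label number can therefore not be told apart here. On plate 3240-AT EGR1 had 59.7, 56.6, 50.3 and 54.9 CPM in the 4 water controls. In the 12 DMSO controls it had 57.2 to 130 CPM (median 90.2). The log2 fold change, water against DMSO, was -0.71 ± 0.15, where 4.02% of all genes were called. These levels too were in view, so the call is a description. The groups overlap in the lowest DMSO library. This call held in all alternatives run for it, each water control left out included.

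The DDE plate had its own pattern, tied to the number in the label. Controls 9 and 16 had ATF3 at 375 and 533 CPM, JUN at 335 and 374 CPM and IER3 at 626 and 1049 CPM, while the 6 controls numbered 10 to 15 had 8.92 to 108, 50.2 to 204 and 99.8 to 288 CPM. The same 2 controls were low in FOSL1 (22.6 and 19.5 CPM against 62.5 to 94.0 CPM) and EGR1 (39.3 and 60 CPM against 137 to 226 CPM). ARC stood at 65.6 CPM in control 16 and at 3.54 CPM or less in the other controls. Among dosed libraries, numbers 1, 8, 9 and 16 had the highest ATF3 of their dose in 4 of 4 doses, with 21.6, 67.7, 15.6 and 101 CPM against 3.24 CPM or less in the rest.

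DDE at 25 µM had FOSL1 called higher (125, 129, 161 and 165 CPM, 1.16 ± 0.25; 3.56% of all genes called higher) and ATF3 lower (21.6, 0, 0.322 and 0.188 CPM, -4.45 ± 1.35; 4.22% called lower, 7.77% in either direction). Without the libraries numbered 1, 8, 9 and 16 these came to 0.96 and -7.86, and 4 genes were called. Without the 2nd or the 3rd library of each dose neither was called, and ATF3 was also lost with the 2 groups fitted alone. FOSL1 at 2.5 µM had 174, 196, 173 and 121 CPM, all above the 8 controls, which reached 94.0 CPM (1.35 ± 0.25; 0.23% of all genes called higher, 0.496% in either direction). That call was lost with the 2 groups fitted alone and without the 1st, 2nd or 3rd library of each dose.

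**Figure D5:**
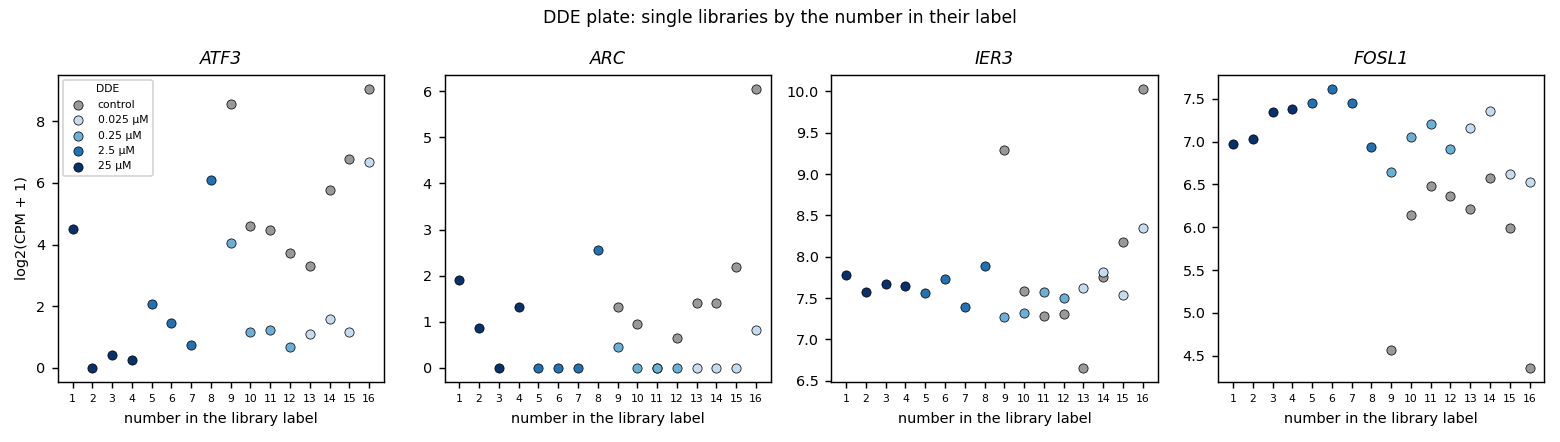
All 24 libraries of the DDE plate by the number in their label, as log2(CPM + 1) of 4 genes, with controls in grey and darker blue for higher doses. Controls 9 and 16 have the highest ATF3 and IER3 and the lowest FOSL1.

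Other genes of the pathway were counted from lists at 25 µM, beside the shares of all genes given above. Of 22 tested immediate early transcription factors other than the 10, arsenic had 11 higher and 6 lower, and cadmium 4 and 6; of 23 tested in thiram, 15 were higher and 3 lower. Among 26 early effectors such as phosphatases and growth arrest genes, arsenic had 14 higher and 4 lower, thiram 20 and 3, cadmium 7 and 4, copper 13 and 1, lead 6 and 4, and MPB 5 and 0. The median log2 fold change of the effectors was 1.17 in arsenic, 1.30 in thiram, 0.00 in cadmium and 0.60 in copper, against 0.00096, -0.11, -1.42 and -0.0049 over all genes tested.

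PPP1R15A, the phosphatase subunit that reverses the block on translation in stressed cells, led in all 3 strong chemicals. It stood at 572 to 641 CPM in arsenic, 901 to 1567 CPM in thiram and 2173 and 2226 CPM in cadmium, with 8.81 to 27 CPM in the water controls and 10.9 to 30.2 CPM in the DMSO controls of the thiram plate. Its log2 fold changes were 5.17 ± 0.14, 5.83 ± 0.13 and 7.03 ± 0.17. GADD45A, a growth arrest gene, was at 3.56 ± 0.19 in arsenic and 4.33 ± 0.17 in thiram. DUSP2, a phosphatase that switches off MAP kinases, was at 5.63 ± 0.37 in cadmium and 4.59 ± 0.22 in thiram, and CSRNP1, an early nuclear factor, at 3.10 ± 0.19 in arsenic.

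CCN2 and CCN1 are matrix proteins with early kinetics. CCN2 was at 5.47 ± 0.39 in cadmium, 1.75 ± 0.31 in copper, 1.19 ± 0.32 in lead and 0.57 ± 0.12 in MPB, and CCN1 at 1.5 ± 0.33 in copper and 0.71 ± 0.10 in MPB. DUSP5, another MAP kinase phosphatase, was at 1.58 ± 0.24 in copper. In lead GADD45A (1.08 ± 0.22) and PHLDA1 (0.76 ± 0.23) were higher, and SGK1 (-0.91 ± 0.20), PLK2 (-0.61 ± 0.17) and GADD45B (-0.61 ± 0.19) lower. In MPB CSRNP1 was highest at 0.79 ± 0.20, and CEBPD was at -0.52 ± 0.15.

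Other early genes were called lower in these groups. MYC, the growth factor-driven activator of ribosome and cell cycle genes, was at 23.6 to 40.8 CPM in arsenic, 22.5 to 96.5 CPM in thiram and 33.9 and 58.8 CPM in cadmium, against 323 to 416 CPM in the water controls and 269 to 352 CPM in the DMSO controls of thiram. The log2 fold changes were -3.70 ± 0.10, -2.13 ± 0.12 and -3.04 ± 0.21. CEBPD, a bZIP factor of acute phase responses, was at -2.89 ± 0.39, -2.95 ± 0.40 and -2.93 ± 0.90. ID1, a target of BMP signals, was at -2.70 ± 0.11 in arsenic, NFKBIA, the inhibitor of NF-κB, at -2.33 ± 0.16 in thiram and ZFP36L2, an RNA decay factor, at -2.85 ± 0.47 in cadmium. In copper IRF1 (-0.84 ± 0.21), ID1 (-0.61 ± 0.10) and PLK2 (-0.57 ± 0.17) were lower. In DDE KLF10 was at 0.56 ± 0.14, and SGK1 (-2.53 ± 0.54), NR4A1 (-2.24 ± 0.68) and JUND (-1.95 ± 0.57) were lower.

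Among 20 kinases and factors upstream, arsenic had 7 higher and 4 lower, thiram 7 and 5, and cadmium 1 and 5. MAP2K7, a kinase of the JNK pathway, was at 1.64 ± 0.27 in arsenic. MAP3K5, a stress kinase, had 0 counts in both cadmium libraries against 22.3 CPM in the water controls, at least 11.2-fold lower with 3 counts over the group as its floor. MAP2K6, a kinase of p38, had 0 counts in the 4 thiram libraries against 2.28 CPM in controls, at least 14.7-fold lower.

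Of 18 partners and targets of AP-1, 17 were tested on the metal plate, with 11 higher and 2 lower in arsenic and 6 and 0 in cadmium; 14 were tested in thiram, with 8 and 0. The leading genes were matrix metalloproteases at low levels. MMP13 had 5.89 to 15.1 CPM in arsenic and at most 1.83 CPM in controls, and MMP10 3.31 to 7.01 CPM in thiram with 0 counts in all 15 controls, at least 312-fold higher with 3 counts over the controls as the floor. MMP1 had 15 counts in 1 of the 2 cadmium libraries and 2 counts over the 15 controls. Of 8 genes of active neurons 4 were tested, and 3 were higher in each of arsenic, thiram and cadmium: INHBA, an activin subunit, was at 13.7 to 21.8 CPM in arsenic and 7.88 to 20.3 CPM in thiram, and VGF, a secretory protein, at 1.40 and 56.5 CPM in cadmium.

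The genes most like ARC over the 80 dosed groups of the 4 plates, by Pearson correlation of the mean log2(CPM + 1) minus that of the controls among 18717 genes, were RASD1 (0.968), TENT5C (0.919), CUBN (0.918), AL606500.1 (0.905), SLC30A1 (0.902), AC007728.2 (0.899), SLC13A3 (0.887) and GTF2B (0.885). Groups of a plate share controls, and this is a description. Of the other 9 genes, ATF3 ranked highest at place 32 (0.829), ahead of FOS at place 107 (0.774), and IER3 was at place 10725 (-0.06). The likeness rests on thiram and arsenic at 25 µM: without these 2 groups RASD1 had 0.524, CUBN 0.502 and SLC30A1 0.495, and the other 5 lay between -0.04 (AC007728.2) and 0.222 (SLC13A3). RASD1, a small GTPase-like protein, was 7.87 above its controls on that scale in arsenic, 8.63 in thiram, 1.82 in thiram at 2.5 µM and -0.44 in cadmium at 25 µM. By rank correlation none of the 8 was among the 8 highest.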

How the data were processed

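Each deposited file holds the raw counts of 1 library over gene symbols, as whole numbers that the authors did not normalize, judged from the values. STAR, featureCounts, FastQC, MultiQC and the build GRCh38 are named in the submitters' processing notes; no source used here gives versions, strand handling or annotation. No molecular identifiers are mentioned, so floors cover counting error only. All 10 genes were listed in every library; all passed the filter on each plate except ARC on plate 3206-AT. Among the controls alone ARC, FOSB and ATF3 did not pass on plates 3153-AT and 3284-AT, so there they passed through dosed libraries.

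The members and gene lists were chosen with earlier results of these data known. The barcode printed in each label set a library's plate; 1 cadmium library at 25 µM with the barcode of plate 3284-AT was left out. Each plate was fitted alone with edgeR 4.0.16 in R 4.3.3 (filterByExpr, minimum count 10 and minimum total count 15; TMM; quasi-likelihood test with the common dispersion of the 5% most abundant genes), 1 mean per chemical and dose. P-values were adjusted by Benjamini-Hochberg over all genes of a comparison and called under 0.05. Standard errors are the log2 fold change over the root of F. Promoters came from RefSeq, GRCh38.p14. The test was tried on simulated data. Named genes outside the list were the up to 3 highest and 3 lowest called early genes with average log2 CPM of at least 3 in chemicals with many calls, the most changed called gene of each other list in arsenic, cadmium and thiram, and the 8 most correlated with ARC. Alternatives were DESeq2 1.42.0, RLE scaling, no filter, a term for the split by label number and fits within each side of it, 2 groups alone, each replicate left out, the replicate block, and, chosen after seeing the data, the DDE plate without libraries 1, 8, 9 and 16.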

Additional observations from a re-analysis of the deposited data

Results flagged for a closer look

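In groups of 4 to 10 libraries, 65 pairs of a gene and a group were tested for a library far from the others, and in 9 of them 1 library stood apart by more than Dixon's limit allows; chance alone flags about 1 in 20 groups. Of these, 3 were in the water controls of plate 3240-AT: JUNB in replicate 39 was 147 CPM (next 117 CPM), IER3 in replicate 40 was 193 CPM (next 119 CPM), and ATF3 in replicate 48 was 0.218 CPM with 0 in the others. That ATF3 value is 1 count, and with 0 in all other libraries any count would be flagged. Control 16 of the DDE plate stood apart in ARC (65.6 CPM, next 3.54 CPM), FOSB (31.3 CPM, next 6.90 CPM) and IER2 (89.0 CPM, next 52.8 CPM). ATF3 in DDE at 25 µM was 21.6 CPM in the library numbered 1 and at most 0.322 CPM in the others. EGR1 in PCB153 at 0.25 µM was 334 CPM in replicate 3 and at most 79.5 CPM in the others. ARC in thiram at 25 µM was 512 CPM in replicate 4, below the next library at 1001 CPM.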

How the results depend on the processing

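Of the 36 calls at 25 µM, 26 held under every alternative run for them, as did 5 of 11 at 2.5 µM and none of 4 at 0.25 µM or of 3 trends. The other counts are given with the share of all gene and chemical pairs called under the same setting. With no filter on low counts the calls came to 20 at 2.5 µM (0.434% of all pairs), 18 at 0.25 µM (0.259%) and 11 at 0.025 µM (0.162%). Within the first label numbers they came to 18 (0.792%), 14 (0.513%) and 8 (0.316%), and within the last to 26 (0.881%), 20 (0.361%) and 15 (0.342%). At 0.25 and 0.025 µM DESeq2 gave 9 (0.443%) and 2 (0.0994%), a term for the split by label number 12 (0.283%) and 5 (0.0712%), 2 groups fitted alone 10 (0.277%) and 2 (0.0714%), and the DDE plate without its end-numbered libraries 10 (0.613%) and 5 (0.469%). DESeq2 gave 1 trend (0.0433%). Leaving out 1 replicate gave 8 to 10 calls at 2.5 µM (0.223% to 0.679%), 0 to 8 at 0.25 µM (0.0826% to 0.224%), 0 to 3 at 0.025 µM (0.00286% to 0.298%) and 0 to 1 trends (0.0123% to 0.0246%). Ranked by Spearman, 0 of the 8 genes most like ARC remained. The sign turned for ATF3 in copper at 25 µM within the last label numbers (-1.43) and for EGR1 in PCB153 at 0.25 µM within the first (-0.0056). The cause of these changes was not tested. On the 4 plates, libraries of a chemical with the same replicate number were correlated across the doses below 25 µM, after removal of group means. These correlations were low. They ran from 0.0336 to 0.104 in mercury, which had the highest median, and from -0.0179 to 0.0169 in PFNA, which had the lowest. The main fit therefore did not pair libraries by replicate number. With the replicate block 3 trends were called, as without it, but the share of all pairs called was 0.114% beside 0.0339%. Depth limits cadmium at 25 µM most, where 2 shallow libraries could not show ARC under 1.99 CPM.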
